A study of Mus musculus with 12 samples.

Results

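The baseline transcriptome of mouse bone marrow macrophages treated with non-specific IgG on uncoated dishes was described from 3 of the 12 RNA-seq libraries of a study of integrin α5 (ITGA5), the fibronectin receptor subunit, in macrophages. The 3 libraries are those labelled as control, and they were chosen by their label and not by any measured value. All 22046 genes with the biotype protein_coding, of 54532 genes in the tables, were ranked by their mean FPKM in these libraries. Surface receptors, secreted factors, transcription factors and inflammatory genes were then taken from lists of known genes. No other group of the study was compared here. The cells came from the femoral and tibial marrow of wild-type C57BL/6J mice aged 2 to 3 months. Marrow cells were kept for 24 h with 12 ng/ml CSF-1, and the cells that did not adhere were then cultured for 48 h with 120 ng/ml CSF-1, both in 15% fetal calf serum. The adherent cells were passaged once and, once confluent, exposed to 10 µg/ml IgG for 24 h. The libraries stand for separate samples of 1 group, and their spread is the only error that could be estimated.

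Macrophages are phagocytes that engulf dead cells, debris and microbes and degrade them in lysosomes. CSF-1, the ligand of the receptor encoded by Csf1r, drives the survival, growth and differentiation of marrow progenitors into macrophages in culture. Such cells carry receptors for microbes, complement, antibodies and dying cells, and secrete enzymes, complement and chemokines. Many cytokine genes are transcribed at high levels only after a microbial or cytokine stimulus, and the labels of these samples name none.

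The libraries were close to each other in depth and in profile. Between 17365862 and 17635840 reads were counted on genes, 98.7% to 98.8% of them on protein_coding genes, and genes of the mitochondrial genome held 1.21% to 1.30%. Pearson's r of log2(FPKM + 1) between pairs of libraries was 0.996 to 0.997 across 9741 genes, which are not independent replicates. The chi-square per gene between pairs had a mean of 2.65 to 4.38 (median 0.919 to 1.15), where sampling noise alone gives a mean of about 1, so that no pair was read as repeats of the same library. This does not tell separate cultures from separate preparations of the same culture. FPKM here is the number of reads counted on a gene, divided by the gene length in kb and by a scaled library total, so that levels can be compared between genes per length. Values are the mean ± SD over 3 libraries (n = 3), and values in series follow the order of libraries 1, 2 and 3.

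All 4 genes that mark macrophages were abundant. Lyz2, which encodes the lysozyme of myeloid cells, was at 7149, 7406 and 7988 FPKM, a mean of 7514 ± 429.9 and rank 2 of all protein_coding genes (GRCm38, chr10:117277331-117282321). Cd68, a glycoprotein of lysosomes and endosomes, was at 1116, 1169.5 and 1107 FPKM (rank 18, chr11:69664213-69666153). Csf1r, the receptor for CSF-1, was at 324, 309.7 and 333 FPKM (rank 102), and Adgre1, which encodes the F4/80 antigen, at 171, 170.1 and 165 FPKM (rank 221, chr17:57358691-57483527). The 4 levels did not overlap between any of these genes, and each library gave the same order. The 10 further macrophage genes were all at 1 FPKM or more. They ranged from Tyrobp, the signaling adaptor of many myeloid receptors, at 812 ± 8.52 FPKM to Cx3cr1, the fractalkine receptor, at 5.28 ± 0.633 FPKM. Between these lay Mrc1 at 187 ± 16.8, Cd14 at 104 ± 6.24, Trem2 at 95.5 ± 5.60, Itgam at 58.7 ± 2.50, Fcgr1 at 36.1 ± 3.62, Mertk at 24.7 ± 1.23, Ptprc at 21.3 ± 0.565 and Aif1 at 10.5 ± 0.481 FPKM. All 14 of these genes were thus at 1 FPKM or more, a level that 44.2% of all protein_coding genes and 6 of 10 osteoclast genes also reached.

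A small set of genes held a large share of the transcriptome. Of the 22046 protein_coding genes, 9741 (44.2%) had a mean of at least 1 FPKM, 4373 (19.8%) of at least 10, 396 (1.80%) of at least 100 and 22 of at least 1000. No read was counted in any library for 6957 genes (31.6%). A gene is termed silent here where each of the 3 libraries had at most 3 counts, which held for 9272 genes (42.1%), and low where it was not silent and its mean was under 1 FPKM. The 20 most abundant genes held 23.0 ± 0.209% of all protein_coding FPKM and the 100 most abundant 37.4 ± 0.275%.

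Iron storage led the ranking. Fth1, the ferritin heavy chain, was at 19723, 19854 and 19917 FPKM and alone held 6.76 ± 0.0508% of protein_coding FPKM. Its 3 libraries lay within a coefficient of variation of 0.501%, the smallest of the 20 most abundant genes. Ftl1, the ferritin light chain, was at 6740.3, 6557 and 7072 FPKM (rank 3), and both ferritin genes have processed copies in the genome with which reads could have been shared. Hmox1, the heme oxygenase that releases iron from heme, ranked 13 at 1740.5, 1426 and 1964 FPKM. With a coefficient of variation of 15.8% it was the most variable of the 20, lowest in library 2 and highest in library 3.

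Lysosomal and secreted proteins made up most of the remaining leading genes. Psap, the precursor of the saposins that help to degrade sphingolipids, was at 3019 ± 91.5 FPKM, Ctsd at 2707 ± 89.8 and Ctsb, also a lysosomal protease, at 2419 ± 16.4. Gpnmb, a membrane glycoprotein of lysosomes, was at 1728 ± 35.3 FPKM. The secreted matricellular protein Spp1 (osteopontin) was at 1817 ± 87.6 FPKM and Lgals3 (galectin-3) at 1491 ± 86.3. C1qb, a chain of the first complement component, was at 1117 ± 23.6 FPKM and B2m, the light chain of MHC class I, at 1158 ± 25.4. Genes used by every cell filled the other places among the 20. These were Tmsb4x (2787 FPKM) and Actb (2082) of the actin cytoskeleton, Eef1a1 (2235) and Rplp1 (1063) of translation, and the mitochondrially encoded mt-Co1 (4219), mt-Nd1 (1372) and mt-Cytb (1258). In 8 of the 19 neighbouring pairs of this order the values of the libraries overlapped, for example Tmsb4x and Ctsd, Hmox1 and Lgals3, and Cd68 and C1qb, so that their order is not resolved beyond the spread. Over the 20 genes the coefficient of variation had a median of 3.29%.

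**Figure D1:**
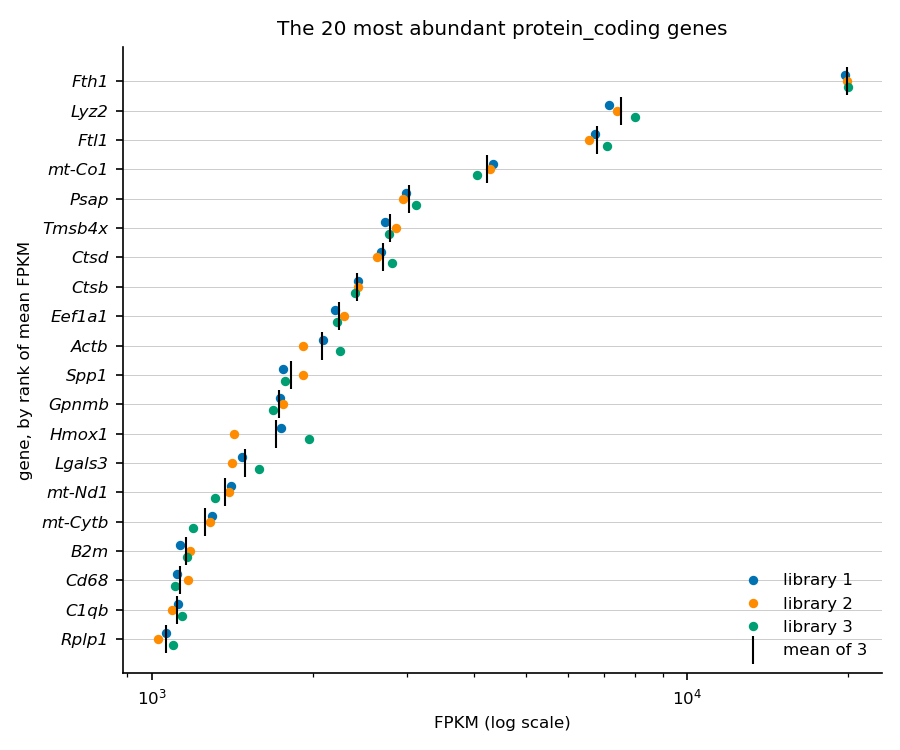
FPKM (log scale, horizontal axis) of the 20 protein_coding genes with the largest mean, ordered by rank; each point is 1 of the 3 libraries and each vertical bar the mean. Fth1 stands apart at 19831 FPKM, the other genes lie between 1063 and 7514, and Hmox1 shows the widest spread.

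By class, the 100 most abundant genes held 12 lysosomal genes (5.18% of protein_coding FPKM), 2 ferritin genes (9.07%), 15 ribosomal protein genes (2.40%), 9 actin cytoskeleton genes (2.67%), 8 glycolytic genes (1.93%) and 7 mitochondrially encoded genes (3.17%). Chaperones and protein turnover added 4 genes (0.664%), translation factors 3 (1.22%) and antigen presentation 2 (0.524%), while 38 genes (10.5%) were in none of these lists. Among the 38 were Lgals1 (1003 FPKM), the pore-forming Mpeg1 (913), the membrane protease Adam8 (837), Apoe (693), the interferon-inducible Ifitm3 (617), the peroxidase Prdx1 (614), the lipid droplet protein Plin2 (426) and Cyba (352), a subunit of the NADPH oxidase. They were picked on sight of their values.

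The lysosomal list was expressed as a whole. Of its 38 protein_coding members, 38 were at 1 FPKM or more and 36 at 10 or more, with a median of 129.7 FPKM, beside 44.2% at 1 FPKM or more and a median of 0.240 FPKM over all protein_coding genes. The letters CACGTG, which are contained in the motif bound by Tfeb, Tfe3 and Mitf, regulators of lysosomal genes, were searched in RefSeq promoters (GRCm38.p6, 250 bases before to 50 after each start, a palindrome and so the same on both strands). They were present in 9 of 36 promoters of 31 lysosomal genes (25%) and in 7.15% of all 32851 promoters. A match describes the letters only. The 250 bases before the start are shown for Ctsd (chr7:142387828-142388077, minus strand) and Lamp1 (chr8:13158911-13159160, plus strand), which encodes a major protein of the lysosomal membrane at 716 ± 15.9 FPKM, as the promoters of abundant lysosomal genes that held the letters, in capitals, more than once.
Ctsd: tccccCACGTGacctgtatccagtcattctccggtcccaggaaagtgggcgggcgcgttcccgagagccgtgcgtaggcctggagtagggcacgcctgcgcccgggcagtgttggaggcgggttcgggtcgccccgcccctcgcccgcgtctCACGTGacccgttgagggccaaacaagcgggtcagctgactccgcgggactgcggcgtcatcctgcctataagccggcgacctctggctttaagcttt
Lamp1: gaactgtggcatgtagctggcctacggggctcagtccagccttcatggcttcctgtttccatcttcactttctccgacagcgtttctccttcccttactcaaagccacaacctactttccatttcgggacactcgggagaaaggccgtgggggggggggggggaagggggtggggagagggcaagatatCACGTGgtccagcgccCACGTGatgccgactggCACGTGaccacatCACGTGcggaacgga
The letters stood 245 to 240 and 98 to 93 bases before the start of Ctsd. In Lamp1 all 4 copies lay within 61 bases of the start. The factors themselves were at modest levels, Tfe3 at 12.2 ± 0.406 FPKM, Mitf at 10.6 ± 0.474, Tfeb at 4.97 ± 0.102 and Tfec at 3.62 ± 0.237.

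Of the 215 protein_coding surface receptors listed, 150 (69.8%) were at 1 FPKM or more, 90 at 10 or more, 35 were low and 30 were silent. Over all protein_coding genes 44.2% reached 1 FPKM and 42.1% were silent. The listed receptors had a median of 6.06 FPKM. Among the 150, the median coefficient of variation was 5.44%.

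**Figure D2:**
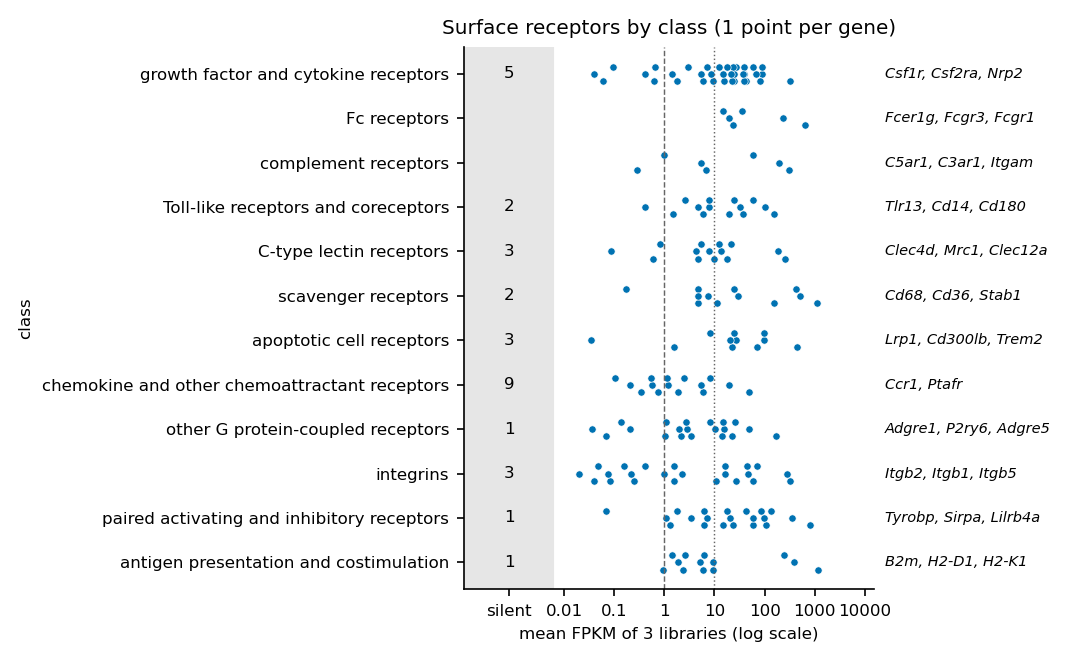
Mean FPKM of 3 libraries (log scale, horizontal axis) of the protein_coding surface receptors, 1 point per gene, by class; the number in the gray field is the count of silent genes (at most 3 counts in each library), the dashed line marks 1 FPKM, the dotted line 10 FPKM, and 2 or 3 leading genes of each class are named at the right. All 6 Fc receptors lie above 10 FPKM, whereas 9 of 24 chemoattractant receptors are silent.

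Of 40 growth factor and cytokine receptors, 29 were at 1 FPKM or more. After Csf1r followed Csf2ra, the ligand-binding chain of the GM-CSF receptor, at 88.0, 85.9 and 87.4 FPKM and Nrp2, a neuropilin that binds semaphorins and VEGF, at 89.3, 83.6 and 88.2. These values overlapped, whereas Csf1r was higher in every library. Nrp1 was at 80.3 ± 2.71 FPKM. Both TNF receptors were expressed (Tnfrsf1b 68.3 ± 5.99, Tnfrsf1a 58.8 ± 2.40), as were both chains of the receptors for type I interferon (Ifnar1 39.0 ± 0.329, Ifnar2 23.5 ± 0.834), for interferon-γ (Ifngr1 37.4 ± 1.91, Ifngr2 24.3 ± 1.44), for TGF-β (Tgfbr2 26.7 ± 0.426, Tgfbr1 18.0 ± 0.272) and for interleukin-10 (Il10rb 43.3 ± 1.68, Il10ra 15.4 ± 0.612). Tnfrsf11a, the receptor RANK, was at 22.8 ± 0.837 FPKM. The interleukin-1 receptor Il1r1 was low at 0.0388 ± 0.0100 FPKM, and its decoy Il1r2 was silent together with Flt3, Il18r1, Kit and Pdgfra.

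All 6 Fc receptors were at 10 FPKM or more, with a class median of 29.8 FPKM, whereas 5 of 7 complement receptors were at 1 FPKM or more, with a median of 6.69. Fcer1g, the common signaling chain of activating Fc receptors, was at 631, 644 and 632 FPKM. Of the ligand-binding Fc receptors, Fcgr3 was at 241, 229 and 232 FPKM, above Fcgr1 (36.1 ± 3.62), the inhibitory Fcgr2b (23.5 ± 1.83) and Fcgr4 (19.9 ± 2.58). The neonatal Fc receptor Fcgrt was at 14.8 ± 0.625 FPKM. C5ar1, the receptor for the anaphylatoxin C5a, was at 312, 285 and 307 FPKM and C3ar1, the receptor for C3a, at 199.7, 187 and 195, with no overlap. Of the complement receptors that take up opsonized particles, Itgam was at 57.9, 61.6 and 56.8 FPKM, Itgax at 0.978 ± 0.213 and Vsig4 at 0.284 ± 0.267.

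Toll-like receptors differed widely, and 13 of 16 listed genes of this class were at 1 FPKM or more. Tlr13, which senses bacterial ribosomal RNA in endosomes, was at 152, 154 and 147 FPKM, the highest of the Toll-like receptors in all 3 libraries. The endosomal RNA sensors Tlr7 and Tlr8 were at 37.9 ± 1.15 and 32.0 ± 2.52 FPKM. Tlr4, the sensor of endotoxin, was at 19.3, 20.7 and 18.4 FPKM. Its coreceptors Cd14 and Ly96 were at 104 ± 6.24 and 7.92 ± 0.825 FPKM, and Cd180 was at 58.3 ± 2.05. Tlr2 was at 7.88 ± 0.161 FPKM, Tlr9 at 1.48 ± 0.140 and Tlr5, the sensor of flagellin, at 0.407 ± 0.111. Tlr11 and Tlr12 had no count in any library.

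Of 17 protein_coding C-type lectin receptors, 11 were at 1 FPKM or more. Clec4d was at 258, 264 and 259 FPKM and the mannose receptor Mrc1 at 190.1, 202 and 169, without overlap. Clec12a, an inhibitory receptor, followed at 21.5 ± 2.22 FPKM. Cd209a, Cd209b and Clec4f were silent. Clec7a (Dectin-1), to which the tables give the biotype polymorphic_pseudogene, was not counted in the class and was at 9.73 ± 1.25 FPKM.

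Of 14 scavenger receptors, which take up lipoproteins and debris, 11 were at 1 FPKM or more, 1 low and 2 silent, with a median of 9.28 FPKM, led after Cd68 by Cd36 (497 ± 16.0), which takes up oxidized lipoprotein and fatty acids, Stab1 (426 ± 1.53) and Msr1 (157 ± 3.46). Of 14 receptors for apoptotic cells 10 were at 1 FPKM or more, 1 low and 3 silent, with a median of 21.6 FPKM. Lrp1 was the highest at 446 ± 13.4 FPKM, followed by Cd300lb at 96.8 ± 1.79 and Trem2 at 95.5 ± 5.60, whose values overlapped. Of the TAM receptor kinases, which bind dying cells through bridging proteins, Mertk was at 25.5, 23.3 and 25.2 FPKM, Axl at 7.46, 8.25 and 8.58 and Tyro3 at 0.0339 ± 0.0215. The order of Mertk above Axl above Tyro3 held in every library. Timd4, Havcr1 and Adgrb1 were silent.

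Chemoattractant receptors were the least expressed of the receptor classes, with 9 of 24 at 1 FPKM or more and 9 silent. Ccr1 was at 51.5, 48.3 and 49.2 FPKM and Ptafr, the receptor for platelet-activating factor, at 19.3 ± 1.33. Ccr2, the receptor for the chemokine encoded by Ccl2, was at 1.29, 1.19 and 1.09 FPKM. Ackr3, Ccr4, Ccr6, Ccr7, Ccr8, Ccr9, Cxcr2, Cxcr5 and Ltb4r1 were silent. Of 21 other G protein-coupled receptors 16 reached 1 FPKM, with Adgre1 (169 FPKM), the UDP receptor P2ry6 (48.5 ± 1.99) and Adgre5 (25.8 ± 2.03) in the lead and Adgre4 silent.

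Of 26 integrin genes 13 were at 1 FPKM or more and 10 at 10 or more. The common leukocyte chain Itgb2 was at 315, 307 and 323 FPKM and Itgb1, the partner of ITGA5, at 278, 282 and 264, and the values did not overlap. Itga5 itself was at 44.8, 44.5 and 49.1 FPKM. Among the α chains it lay below Itgam (58.7 ± 2.50) in all 3 libraries and overlapped Itga6 (44.2 ± 0.922), and it lay above Itgav (26.8 ± 1.67), Itgal (16.6 ± 1.15) and Itga4 (16.1 ± 0.864). Itgb5 was at 69.6 ± 4.06 FPKM, whereas Itgb3, the other partner of αv in many cells, was at 1.58 ± 0.293. Itgad, Itgb6 and Itgb8 were silent.

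Paired activating and inhibitory receptors had the highest share after the Fc receptors, with 20 of 22 at 1 FPKM or more. Sirpa, the inhibitory receptor for CD47, was at 353, 362 and 346 FPKM. The inhibitory Lilrb4a was at 133 ± 8.13 FPKM, Cd84 at 104 ± 2.96 and Siglec1, a sialic acid receptor, at 58.3 ± 1.92. Siglech was silent and Siglecf was at 0.0684 ± 0.0515 FPKM.

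Antigen presentation genes fell into separate ranges. The MHC class I genes H2-D1 and H2-K1 were at 367, 378 and 389 and at 239.6, 238 and 259 FPKM. In contrast the MHC class II genes H2-Ab1, H2-Eb1 and H2-Aa were at 2.16, 2.69 and 2.16, at 1.37, 2.20 and 2.02 and at 0.926, 0.905 and 0.944 FPKM, and the invariant chain Cd74 was at 4.80, 7.14 and 6.35. No class II value of any library reached the lowest class I value. The costimulatory genes Cd40, Cd80 and Cd86 were at 9.16 ± 0.261, 2.58 ± 0.265 and 1.46 ± 0.126 FPKM, the ligand Cd274 (PD-L1) at 9.51 ± 1.21, and Pdcd1lg2 (PD-L2) was silent.

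Of 216 protein_coding secreted factors 96 (44.4%) were at 1 FPKM or more, 62 at 10 or more, 50 low and 70 (32.4%) silent, beside 44.2% at 1 FPKM or more and 42.1% silent over all protein_coding genes. The expressed members were concentrated in some classes. All 18 cathepsins and other lysosomal secreted enzymes were at 1 FPKM or more with a class median of 276 FPKM, whereas 21 of 41 interleukins and other cytokines were silent.

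**Figure D3:**
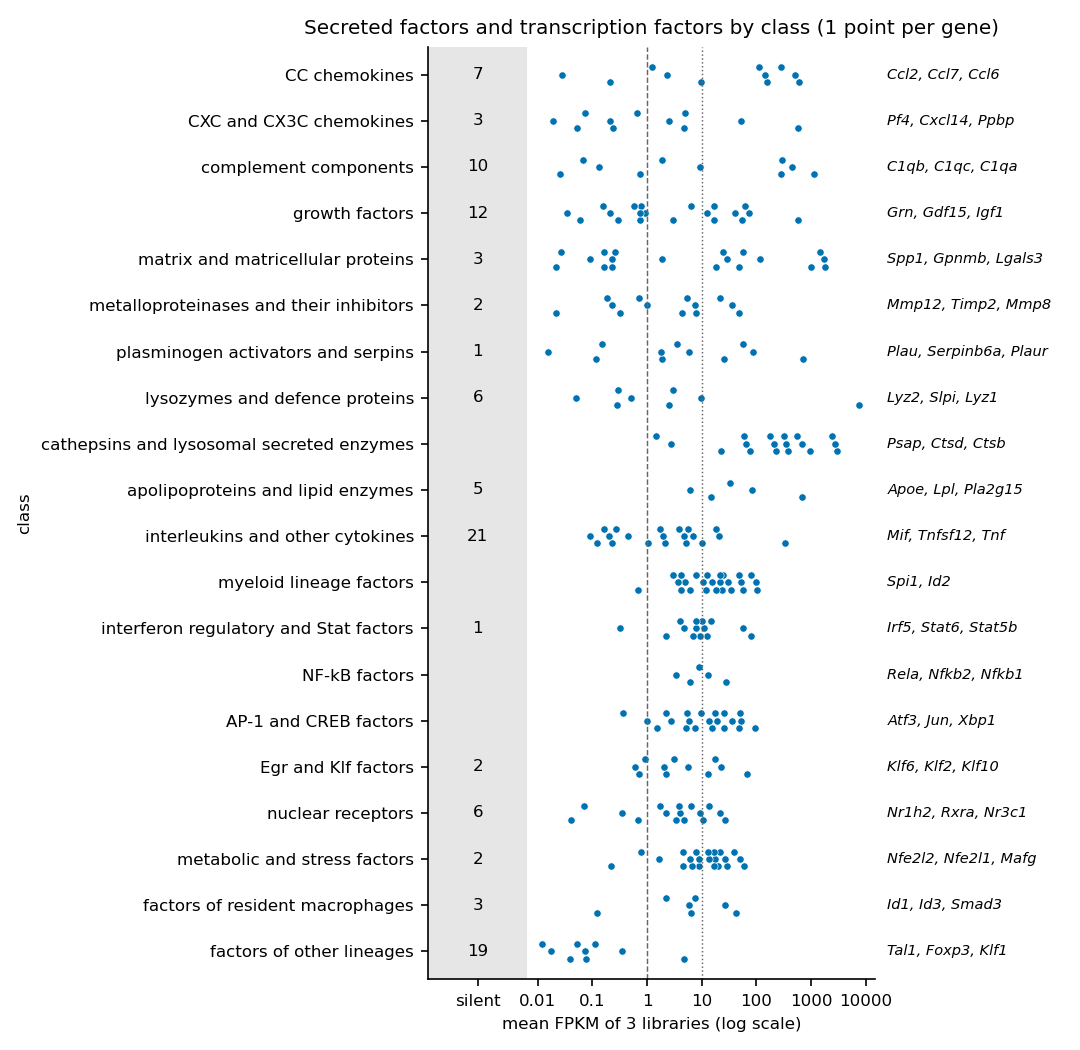
Mean FPKM of 3 libraries (log scale, horizontal axis) of secreted factors (the 11 upper classes) and transcription factors (the 9 lower classes), 1 point per gene; the number in the gray field is the count of silent genes, the dashed line marks 1 FPKM, the dotted line 10 FPKM, and 2 or 3 leading genes of each class are named at the right. Lysosomal secreted enzymes have the highest class median (276 FPKM), and 19 of 28 factors of other lineages are silent.

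Chemokines were unevenly expressed. Of 18 CC chemokines 9 were at 1 FPKM or more and 6 at 10 or more. Ccl2, which attracts monocytes, was at 626, 571 and 618 FPKM and ranked 43 of all protein_coding genes. Ccl7 was at 546, 452 and 539 FPKM, with every library below every library of Ccl2, and both genes were lowest in library 2. Ccl6 was at 288 ± 2.27 FPKM and Ccl9 at 154 ± 3.13. The inflammatory chemokines Ccl4 and Ccl3 were at 144, 151 and 132 and at 109, 126 and 96.3 FPKM, and both were highest in library 2. Ccl1, Ccl11, Ccl17, Ccl19, Ccl20, Ccl22 and Ccl8 were silent. Of 14 CXC and CX3C chemokines 5 were at 1 FPKM or more. Pf4 (platelet factor 4) was at 632, 509.9 and 575 FPKM, Cxcl14 at 51.5 ± 2.57 and Ppbp at 5.05 ± 0.476, while Cxcl9, Cxcl13 and Cxcl15 were silent.

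Of 20 complement components 6 were at 1 FPKM or more and 10 silent. All 3 chains of C1q, the recognition molecule of the classical pathway, were abundant. C1qb was at 1122, 1091 and 1137 FPKM, C1qc at 462, 445 and 462 and C1qa at 282, 293 and 314, an order with no overlap. Properdin (Cfp), which stabilizes the alternative pathway convertase, was at 286 ± 6.60 FPKM. The listed components other than C1q and properdin were far lower, with C3 at 1.86 ± 0.462 FPKM and C4b at 0.0666 ± 0.0414. C1s1, C6, C7, C8a, C9, Cfb, Cfd, Cfi, Hc and Masp2 were silent.

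Of 32 growth factors 10 were at 1 FPKM or more and 12 silent. Grn (progranulin) led at 576, 584 and 585 FPKM. Gdf15, a stress-induced member of the TGF-β family, was at 74.3 ± 5.67 FPKM and overlapped none of the libraries of Igf1 (61.4 ± 1.93). Tgfb1 was at 55.7 ± 1.38 FPKM and Pdgfb at 12.3 ± 1.76. Csf1, whose product was supplied in the medium, was itself low at 0.931 ± 0.0486 FPKM. Angpt1, Areg, Bmp4, Ereg, Igf2, Il34, Nrg1, Pdgfd, Tgfa, Tgfb2, Vegfc and Wnt5a were silent.

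Of 22 genes of matrix and matricellular proteins 10 were at 10 FPKM or more, 8 low and 3 silent. After Spp1, Gpnmb, Lgals3 and Lgals1 came Emilin2 at 119 ± 5.28 FPKM. Fn1 (fibronectin) was at 1.54, 1.64 and 2.43 FPKM. Col1a1 was at 0.163 ± 0.0520 FPKM, Col4a1 at 0.164 ± 0.0580 and Col3a1 at 0.0272 ± 0.00668, and Col6a1, Dcn and Lum were silent.

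The list of plasminogen activators and serpins was led by Plau, the urokinase-type plasminogen activator, at 754, 707 and 663 FPKM. Its receptor Plaur was at 56.1 ± 3.95 FPKM, while the inhibitor Serpinb2 was silent. Serpinb6a, an inhibitor of intracellular proteases, was at 88.0 ± 0.825 FPKM. Of 15 metalloproteinases and inhibitors 7 were at 1 FPKM or more. The macrophage elastase Mmp12 was at 47.9 ± 1.71 FPKM, Timp2 at 35.7 ± 2.00 and Mmp8 at 21.5 ± 3.13, while Mmp3 and Timp4 were silent. Lysosomal enzymes that can be secreted followed Psap, Ctsd and Ctsb with Ctss at 945 ± 16.2 FPKM and Lipa, the acid lipase, at 672 ± 15.7.

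Apoe, the lipid carrier, was at 708, 657 and 714 FPKM and Lpl, the lipoprotein lipase, at 84.8 ± 1.24. Pla2g15, a lysosomal phospholipase, was at 32.8 ± 1.44 FPKM. Apoa1, Apob, Apoc1, Apoc2 and Apoc4 were silent, of which Apoc1, Apoc2 and Apoc4 lie in 1 gene cluster with Apoe. Of 14 lysozymes and defence proteins only Lyz2 was at 10 FPKM or more. Lyz1, a close paralog of Lyz2, was at 2.93 ± 0.666 FPKM, and reads shared between them could have been lost or misplaced in counting. Slpi, a protease inhibitor, was at 7.75, 9.97 and 11.5 FPKM. Camp, Chil1, Ltf, Ptx3, Retnla and S100a9 were silent.

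Of 41 interleukins and other cytokines 13 were at 1 FPKM or more and 4 at 10 or more. Mif was at 339 ± 14.6 FPKM, Tnfsf12 (TWEAK) at 20.3 ± 1.23 and Tnf at 18.2 ± 2.20. The interleukin-1 receptor antagonist Il1rn was at 4.67 ± 0.704 FPKM and Il18bp, which binds interleukin-18, at 2.14 ± 0.171. Il10 was at 0.133, 0.475 and 0.0871 FPKM. In addition to those named with the inflammatory genes, Il11, Il13, Il17a, Il2, Il20, Il22, Il5, Il7, Lta and Tnfsf11 were silent.

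Of 161 listed transcription factors 106 (65.8%) were at 1 FPKM or more, 57 at 10 or more, 22 low and 33 (20.5%) silent, beside 44.2% at 1 FPKM or more and 42.1% silent over all protein_coding genes. Of 25 factors of the myeloid lineage 24 were at 1 FPKM or more and none was silent. Spi1, the ETS factor PU.1 that establishes the myeloid lineage, was at 98.7, 93.6 and 114 FPKM. Id2 was at 80.4 ± 3.37 FPKM, Maf at 56.8 ± 2.13, Cebpa at 51.7 ± 6.81, Cebpb at 47.9 ± 6.96, Irf8 at 30.6 ± 1.85 and Runx1 at 7.75 ± 0.390.

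The leading factors of stress and of interferon signaling lay among these myeloid factors in level. Atf3, an AP-1 family repressor induced by stress, was at 92.7, 95.0 and 100.3 FPKM, and Jun, Xbp1 and Atf4 at 53.1 ± 2.06, 50.4 ± 1.02 and 47.3 ± 3.13. Of 21 AP-1 and CREB factors 19 were at 1 FPKM or more. Irf5, which drives inflammatory cytokine genes, was at 81.3, 74.8 and 85.9 FPKM and Stat6, which transmits interleukin-4 signals, at 57.3 ± 1.63, with Stat5b at 14.9 ± 0.276. Irf4 was at 0.326 ± 0.0974 FPKM. All 5 NF-kB factors were expressed, Rela at 27.7 ± 0.665, Nfkb2 at 12.8 ± 0.631, Nfkb1 at 9.03 ± 0.354, Rel at 6.10 ± 0.641 and Relb at 3.39 ± 0.511 FPKM.

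Klf6 led the Egr and Klf factors at 67.3 ± 0.651 FPKM, ahead of Klf2 at 22.3 ± 4.89 and Klf10 at 17.9 ± 1.24. The immediate early genes Egr1, Egr2 and Egr3 were low at 0.918 ± 0.142, 0.717 ± 0.148 and 0.610 ± 0.111 FPKM, and Egr4 and Klf5 were silent. Of 22 nuclear receptors 12 were at 1 FPKM or more, led by the oxysterol receptor Nr1h2 at 26.9 ± 1.04, Rxra at 21.7 ± 0.635 and the glucocorticoid receptor Nr3c1 at 13.6 ± 0.208. Hnf4a, Nr2f2, Ppara, Rarb and Rxrg were among the silent ones. Metabolic and stress factors were led by Nfe2l2 (Nrf2), which controls antioxidant genes, at 59.5 ± 2.20 FPKM, Nfe2l1 at 50.2 ± 0.997 and Mafg at 38.8 ± 2.23, while Mycl and Mycn were silent. The hypoxia factor Hif1a was at 21.7 ± 1.38 FPKM and Epas1 at 6.57 ± 0.591.

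Among factors that define resident macrophages of other tissues, Id1 was at 45.3, 31.8 and 52.9 FPKM, Id3 at 27.1 ± 4.66 and Smad3 at 7.50 ± 0.150. Pparg, required in alveolar macrophages, was at 6.49 ± 0.539 FPKM, and Spic, required in red pulp macrophages, at 0.124 ± 0.00744. Gata6 of peritoneal macrophages, Sall1 of microglia and Sall3 were silent. Of 28 factors of other lineages 1 was at 1 FPKM or more, Tal1 of hematopoietic progenitors at 4.79 ± 0.229, followed by the low Foxp3 (0.343 ± 0.0900) and Klf1 (0.112 ± 0.0759). Among the 19 silent ones were Ebf1, Eomes, Gata1, Gata4, Gfi1b, Myod1, Nanog, Neurod1, Nkx2-5, Pax5, Pdx1, Pou5f1, Sox17, Sox2, Sox9, Tcf21, Tcf7 and Twist1.

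The tables also carry a column of transcription factor families, which is independent of these lists. It named 1451 protein_coding genes, of which 648 (44.7%) were at 1 FPKM or more, 167 at 10 or more and 569 (39.2%) silent, shares near those of all protein_coding genes. Families differed. Of 48 bZIP genes 37 were at 1 FPKM or more (77.1%), and of 10 Rel homology genes 9. Of 229 homeobox genes 17 were at 1 FPKM or more (7.42%) and 188 silent (82.1%), and of 17 T-box genes 1 was at 1 FPKM or more and 14 silent. The homeobox family was led by Cers2 (83.9 ± 0.680 FPKM), a ceramide synthase that carries a homeobox-like domain. At the head of the whole column stood Ybx1 (286 ± 6.56), a cold-shock domain protein that binds RNA and DNA, and Hmga1 (226 ± 11.5), an architectural chromatin protein, both above Spi1 in every library. For 3 of the 161 listed factors (Hif1a, Epas1 and Cebpd) the column gave no family.

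Of 111 protein_coding inflammatory genes 61 (55.0%) were at 1 FPKM or more, 21 at 10 or more, 28 low and 22 (19.8%) silent. Over all protein_coding genes 44.2% were at 1 FPKM or more and 42.1% silent. The count of 22 depends on the definition of silent, with 46 genes under 1 FPKM in every library and 9 without any count. At 1 FPKM or more were 14 of 16 NF-kB and cytokine feedback genes, 9 of 10 inflammasome genes and 18 of 23 interferon-stimulated genes. None of these 3 classes held a silent gene. Of the proinflammatory cytokines 11 of 19 were silent, of the inducible chemokines 5 of 16, of the inducible enzymes and effectors 4 of 16 and of the inducible surface molecules 2 of 12. The same 4 classes also held 21 of the 61 genes at 1 FPKM or more.

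**Figure D4:**
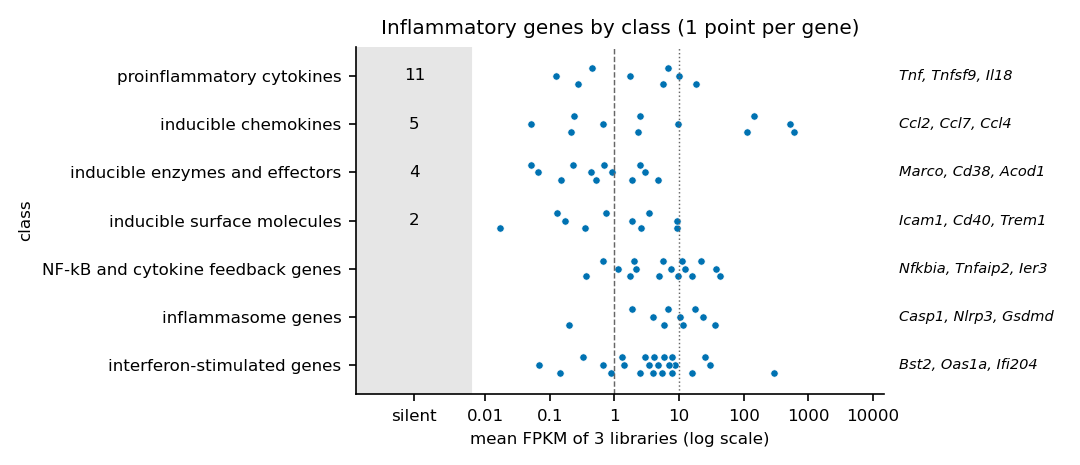
Mean FPKM of 3 libraries (log scale, horizontal axis) of protein_coding inflammatory genes, 1 point per gene, by class; the number in the gray field is the count of silent genes, the dashed line marks 1 FPKM, the dotted line 10 FPKM, and the 3 leading genes are named at the right. Silent genes occur in the 4 upper classes, with 11 among the proinflammatory cytokines, and in none of the 3 lower ones.

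Among the cytokines, Tnf was at 15.8, 18.6 and 20.2 FPKM with 448, 540 and 579 counts. Tnfsf9 (4-1BB ligand) was at 10.1 ± 0.708 FPKM and Il18 at 6.80 ± 0.534, and Osm (oncostatin M) at 5.59 ± 0.468. Il1b was low at 0.334, 0.267 and 0.209 FPKM, from 11, 9 and 7 counts, and Il1a was at 0.454 ± 0.0608. The level of Tnf was thus above that of Il1b in every library. The 11 silent genes were Csf2, Csf3, Ifna4, Ifnb1, Ifng, Il12a, Il12b, Il19, Il23a, Il33 and Il6. For Il6 there were 2, 0 and 2 counts, and 3 counts in a library would stand for at most 0.0715 FPKM. Ifng had no count in any library, which allows up to 0.134 FPKM, and Ifnb1 had 0, 0 and 2 counts. Such limits cover counting error only.

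The inducible chemokines were led by Ccl2, Ccl7 and Ccl4, given above, with Ccl3 as the fourth member at 10 FPKM or more. Ccl12 was at 9.72 ± 0.606 FPKM and Ccl5 at 1.57, 3.71 and 1.55, highest in library 2. Of the interferon-γ targets Cxcl10 was low at 0.236 ± 0.209 FPKM and Cxcl9 silent, as were Ccl17, Ccl20, Ccl22 and Ccl8. Cxcl11, with the biotype polymorphic_pseudogene, was not counted in the class and also had at most 3 counts in each library.

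Inducible enzymes and effectors held no gene at 10 FPKM or more. Marco, a scavenger receptor, was at 3.28, 4.85 and 5.96 FPKM, Cd38, an NAD hydrolase, at 3.00 ± 0.367 and Acod1, which makes itaconate, at 1.57, 2.46 and 3.41. Marco and Acod1 were lowest in library 1 and highest in library 3. Nos2, the inducible nitric oxide synthase, was low at 0.0918, 0.103 and 0 FPKM, from 7, 8 and 0 counts. Ptgs2, the inducible cyclooxygenase, was at 0.428 ± 0.0801 FPKM. Edn1, Ido1, Ptx3 and Serpinb2 were silent. Of the inducible surface molecules Icam1 was at 9.17 ± 1.23 FPKM, Cd40 at 9.16 ± 0.261 and Trem1 at 3.37 ± 0.716, and Il1r2 and Sele were silent.

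Of the feedback and inflammasome genes the highest are given here, while the feedback genes Dusp2 and Socs1 and the inflammasome gene Mefv were low. Nfkbia, the inhibitor of NF-kB that is itself a target of NF-kB, was at 40.5, 37.3 and 53.1 FPKM, lowest in library 2 and highest in library 3. Tnfaip2 was at 37.1 ± 2.42 FPKM and Ier3 at 21.8 ± 0.645. Casp1, which cleaves the precursors of interleukin-1β and interleukin-18, was at 36.5, 35.4 and 37.5 FPKM. Nlrp3, the sensor that activates it, was at 22.8, 23.8 and 22.4 FPKM and the pore-forming Gsdmd at 17.4 ± 1.16.

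Of the interferon-stimulated genes Bst2 (tetherin) stood apart at 299.9, 286 and 308 FPKM. Oas1a was at 29.7 ± 2.38 FPKM and Ifi204 at 25.2 ± 1.48, both members of families of near-identical genes whose counts are uncertain. Isg15 was at 6.35, 8.23 and 8.38 FPKM and Rsad2 at 3.04, 4.85 and 3.90, both lowest in library 1. The members under 1 FPKM were Gbp2, Isg20, Ifi44, Iigp1 and Gbp5. Mx2, a polymorphic_pseudogene in the tables, was not counted and was at 0.564 ± 0.211 FPKM.

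The letters GAAANNGAA, the core of the element bound by interferon-activated factors, were searched on both strands of the same RefSeq promoters. They were found in 13 of 21 promoters of 18 interferon-stimulated genes (61.9%) and in 8.56% of all promoters. The letters GGGANNTTC, part of the NF-kB site, were found in 3 of 22 promoters of 19 silent inflammatory genes (13.6%), in 5 of 54 promoters of 46 inflammatory genes at 1 FPKM or more (9.26%) and in 3.94% of all promoters. TATAAA, the TATA box, was found in 9 of the 22 (40.9%), 13 of the 54 (24.1%) and 13.6% of all promoters. Copies may overlap each other. The 250 bases before the start are shown for genes at contrasting levels, Bst2 at 298 FPKM (chr8:71537473-71537722, minus strand) and Isg15 at 7.65 (chr4:156200819-156201068, minus strand) with the interferon element in capitals, the silent Il6 (chr5:30012864-30013113, plus strand) with the NF-kB letters in capitals and Tnf at 18.2 FPKM (chr17:35202008-35202257, minus strand) with the TATA box in capitals.
Bst2: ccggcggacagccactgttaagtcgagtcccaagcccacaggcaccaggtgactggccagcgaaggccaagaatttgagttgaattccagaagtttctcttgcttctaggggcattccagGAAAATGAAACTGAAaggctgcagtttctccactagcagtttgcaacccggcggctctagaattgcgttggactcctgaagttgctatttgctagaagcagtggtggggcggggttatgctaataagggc
Isg15: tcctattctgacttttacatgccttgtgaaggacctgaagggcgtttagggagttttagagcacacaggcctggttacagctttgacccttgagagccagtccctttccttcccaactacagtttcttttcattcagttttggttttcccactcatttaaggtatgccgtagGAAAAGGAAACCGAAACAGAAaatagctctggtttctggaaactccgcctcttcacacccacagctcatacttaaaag
Il6: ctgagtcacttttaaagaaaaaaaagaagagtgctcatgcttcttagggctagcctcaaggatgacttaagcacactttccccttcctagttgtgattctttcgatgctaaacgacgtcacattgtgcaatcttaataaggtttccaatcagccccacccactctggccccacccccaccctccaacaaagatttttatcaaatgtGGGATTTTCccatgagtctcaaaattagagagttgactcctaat
Tnf: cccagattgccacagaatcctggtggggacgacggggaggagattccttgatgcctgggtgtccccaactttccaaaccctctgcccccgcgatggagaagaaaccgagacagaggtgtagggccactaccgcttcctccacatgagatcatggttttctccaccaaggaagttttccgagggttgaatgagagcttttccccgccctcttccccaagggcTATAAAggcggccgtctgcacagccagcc
In Bst2 the copies lay 130 to 122 and 124 to 116 bases before the start and overlap. In Isg15 the 3 overlapping copies spanned 78 to 58 bases before the start. The NF-kB letters of Il6 began 44 bases before its start, and the TATA box of Tnf 29 bases before.

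Of 18 genes of alternative activation, the state induced by interleukin-4, 8 (44.4%) were at 1 FPKM or more, 6 low and 4 (22.2%) silent, beside 44.2% and 42.1% over all protein_coding genes. Stab1 was at 425, 425 and 428 FPKM, Mrc1 at 187 ± 16.8, Tgm2, a transglutaminase, at 86.3 ± 6.17 and Il4ra at 21.7 ± 2.28. Chil3 was low at 0.292 ± 0.109 FPKM and Egr2 at 0.717 ± 0.148, and Retnla, Ccl17, Ccl22 and Pdcd1lg2 were silent.

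Of 131 protein_coding genes listed for 20 other cell types 29 (22.1%) were at 1 FPKM or more, 37 were low and 65 (49.6%) silent, 40 of them without a count in any library. Over all protein_coding genes 44.2% were at 1 FPKM or more and 42.1% silent. In bulk RNA fewer cells of a type and less RNA per cell cannot be told apart. All 6 NK cell genes were silent, and none of 10 T cell genes reached 1 FPKM, with a summed level of 0.310 to 0.361 FPKM per library. The same held for the mast cell and basophil (0.0630 to 0.107), eosinophil (0.0203 to 0.259) and erythroid lists (0.0610 to 0.416). Of 12 neutrophil genes Csf3r (6.02 ± 0.184) and S100a8 (2.52 ± 0.647) passed 1 FPKM and 7 were silent, among them the defining Ly6g and Elane. Of 8 B cell genes Cd79b (3.54 ± 0.693), Cd22 (1.01 ± 0.211) and Ighm (2.63 ± 0.631), an immunoglobulin segment with a biotype of its own, passed, whereas Ms4a1 was silent. Of 10 fibroblast genes Acta2 (1.36 ± 0.481) passed, with Pdgfra and Dcn silent. Of 6 endothelial genes Vwf (6.48 ± 0.0840) and Kdr (1.82 ± 0.219) passed and 2 were silent. Of 5 adipocyte genes Fabp4 (7.30 ± 0.595) passed and 4 were silent, Adipoq among them. Of 6 megakaryocyte and platelet genes Ppbp (5.05 ± 0.476) passed and 3 were silent. Of 6 stem and progenitor cell genes Ly6a (4.48 ± 0.539) passed and 3 were silent. Of 8 dendritic cell genes Bst2 passed and 4 were silent, among them Flt3, Ccr7 and Siglech. Among monocyte genes Nr4a1 (1.71 ± 0.0729) and Ccr2 (1.19 ± 0.102) passed, and Ly6c2 was at 0.0629 ± 0.0425 FPKM. The part of such cells in the values above was not tested.

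Osteoclasts, which also arise from CSF-1-dependent precursors, were the other cell type with the largest count, 6 of 10 genes. Mmp9 was at 7.79 ± 0.456 FPKM, Nfatc1 at 7.12 ± 0.262, Atp6v0d2 at 5.20 ± 0.403, Ctsk at 2.74 ± 0.514, Acp5 at 1.72 ± 0.119 and Itgb3 at 1.58 ± 0.293. The receptors Calcr and Oscar were silent. Genes of resident macrophages were present in part. Red pulp genes Hmox1, Slc40a1 (51.2 ± 6.19), the iron exporter, and Treml4 (1.05 ± 0.153), Kupffer cell genes Cd5l (24.1 ± 0.528) and Marco, the microglial P2ry12 (3.34 ± 0.311), the alveolar Pparg and the peritoneal Icam2 (6.59 ± 0.615) were at 1 FPKM or more. The defining Clec4f and Timd4 of Kupffer cells, Sall1 of microglia and Gata6 of peritoneal macrophages were silent.

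The 3 libraries differed little. Over the 4373 genes at 10 FPKM or more, the coefficient of variation had a median of 3.62% and the ratio of the highest to the lowest library a median of 1.07, over 1.25 in 109 genes and over 1.5 in 7. The 5 largest ratios belonged to mt-Co3 (2.21; 22.0, 48.5 and 22.9 FPKM), Id1 (1.66; 45.3, 31.8 and 52.9), Gdf3 (1.64; 12.5, 17.8 and 20.6), Cks2 (1.61; 15.0, 18.2 and 11.3) and Klf2 (1.57; 22.7, 17.2 and 27.0). Id1 encodes an inhibitor of bHLH factors, Gdf3 a member of the TGF-β family, Cks2 a subunit of cyclin-dependent kinases and Klf2 a zinc finger factor. The biological coefficient of variation estimated by edgeR over 12229 genes was 0.0445.

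Some of this spread was shared within gene groups. Of 26 proliferation genes, all at 1 FPKM or more, 24 were highest in library 2 and 21 lowest in library 3. Pcna, the sliding clamp of DNA replication, was at 243, 261 and 231 FPKM and the cell cycle marker Mki67 at 35.3, 40.5 and 31.6. The summed level of the 26 genes was 769 FPKM in library 1, 847 in library 2 and 724 in library 3. Glycolytic genes showed another order, with 12 of 13 highest in library 3 and 13 of 13 lowest in library 2. Pgk1 was at 1024, 987 and 1025 FPKM and Ldha at 764, 715 and 790.4. Of 32 actin cytoskeleton genes at 10 FPKM or more 18 were highest in library 3 and 21 lowest in library 2. Over all 9741 genes at 1 FPKM or more 34.5% were highest in library 2 and 36.1% lowest in library 3. Over the 4373 genes at 10 FPKM or more 38.0% were highest in library 3, and 1751 genes were lowest in library 2. The order among samples of 1 group is given as a description, and genes of a group are not independent.

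**Figure D5:**
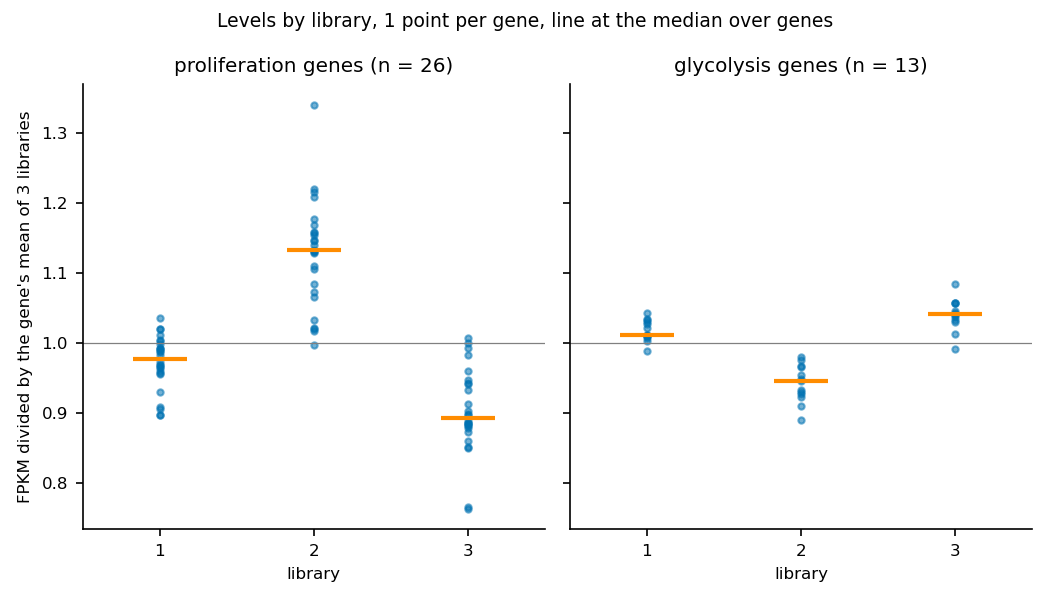
FPKM of each library divided by the gene's mean of 3 libraries (vertical axis, ratio) for 26 proliferation genes and 13 glycolytic genes; each point is 1 gene and each line the median over the genes. The median ratio of the proliferation genes is 1.13 in library 2 and 0.893 in library 3, and that of the glycolytic genes 0.945 in library 2 and 1.04 in library 3.

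Some low values belonged to genes whose annotated span overlaps another gene, where reads can be left uncounted. Overlap was taken over whole gene spans on either strand, introns included, which is wider than an overlap of exons. Of the 111 inflammatory genes 35 overlap another annotated gene, as do 82 of 215 receptors, 88 of 216 secreted factors and 84 of 161 transcription factors. Ribosomal protein genes, which every cell uses, had a median of 159.97 FPKM over the 97 listed. Yet Rpl24 was at 1.26 ± 0.236 FPKM, Rps10 at 1.81 ± 0.156 and Rpl13a at 8.25 ± 0.990, and each of these overlaps another gene. Other ribosomal protein genes that also overlap another gene were high, among them Rpl17 at 538 FPKM, Rps2 at 443 and Rpl4 at 392. The part of the overlap in these values was not tested. Of the 22 silent inflammatory genes 16 overlap no other gene, and Csf2, Edn1, Ifng, Il1r2, Ptx3 and Serpinb2 do.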

How the data were processed

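RNA was enriched with oligo(dT), sequenced as 150 bp paired-end reads, aligned to GRCm38 with TopHat2 2.0.9 and counted per Ensembl gene with HTSeq 0.6.1, per the study's methods and its processing notes. The strand setting and the Ensembl release were not given in the sources used here. The authors deposited a table of read counts per gene, without normalization, and a table of FPKM. In the deposited FPKM each count was divided by gene length and by a library total that was 0.994 to 1.004 of the plain sum of counts. Genes were ranked by mean FPKM with no filter and no test, using Python 3.11.15, pandas 2.3.3 and numpy 2.4.6, and edgeR 4.0.16 in R 4.3.3 gave the biological coefficient of variation. The code for ranking and thresholds was run on counts drawn from the mean counts of these libraries with counting error only. This checks the code and not the order of the genes, since the libraries differed by more than counting error. The biotypes, gene lengths and coordinates are those of the tables. A listed symbol with several gene IDs was read from the protein_coding ID with the most counts. Genes of another biotype were left out of the counts of listed genes, except that the T cell list holds Trac and the B cell list Igkc and Ighm.

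Genes were named by rule: the markers, the 20 most abundant, the 3 leading and all silent members of each class, markers of other cells at 1 FPKM or more, and the 5 most variable genes at 10 FPKM or more. Some genes that this rule names are not reported here. Any other gene was named after its value was seen. The members and lists were chosen with earlier results of these data known. Alternatives were FPKM recomputed from counts, TPM, the median over libraries, each library left out, other biotypes, and other definitions of silent. The columns of the other 9 libraries were not used here. Intervals and limits cover counting error only.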

Additional observations from a re-analysis of the deposited data

How the results depend on the processing

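No paired analysis was possible because 1 group was described and no test was made. Of 47 values recomputed under the alternatives, 45 stayed within 1.5 times the main count or within 1 SD of the main share. The number of protein_coding genes at 1 FPKM or more ranged from 9592 (1 FPKM or more in every library) to 10801 (TPM), beside 9741. Under TPM 163 receptors, 108 secreted factors and 117 transcription factors reached 1, beside 150, 96 and 106 in FPKM. The 20 most abundant genes stayed the same under TPM, under recomputed FPKM, with the median and without any 1 library. Of these genes, 19 were shared with a ranking of all biotypes and 17 with one without mitochondrially encoded genes. Recomputed FPKM and TPM rescale each library as a whole. They cannot change the order of genes within a library or the share of the most abundant, so these agreements were fixed in advance. Silent inflammatory genes depended on the definition. Against 22 with at most 3 counts in each library, 46 were under 1 FPKM in every library, 20 under 0.1 FPKM, 16 had at most 3 counts in all libraries together and 9 had none. Leaving out a library gave 22 to 24. In an alternative chosen after seeing the data, 16 of the 22 overlapped no other gene. With 3 libraries, levels under about 0.17 FPKM for a gene of 1 kb rest on 3 counts or fewer and are not ordered.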

Other observations

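Genes of other biotypes held few reads, but some were abundant per length. Gm23935, a gene of 57 bases with the biotype miRNA, was at 10926, 13047 and 12711 FPKM, second to Fth1 if all biotypes are ranked. So short a gene cannot be read as a mature miRNA in libraries of fragmented, oligo(dT)-enriched RNA, and the origin of its reads was not tested. The nuclear RNA Malat1 was at 137, 144 and 140.3 FPKM. Xist, the RNA of the inactive X chromosome, was at 116, 113 and 109 FPKM, while Ddx3y and Kdm5d of the Y chromosome had no count in any library and Eif2s3y and Uty at most 1.

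The 13 mitochondrially encoded protein genes spanned a wide range although they are transcribed from the same genome. mt-Co1 was at 4329, 4277 and 4052 FPKM, whereas mt-Co2 was at 31.7, 30.5 and 32.4, mt-Atp6 at 16.2, 19.6 and 18.0 and mt-Atp8 at 4.26, 3.60 and 1.96. mt-Co3, at 22.0, 48.5 and 22.9 FPKM, had the largest ratio between libraries of all genes at 10 FPKM or more. Of the genes named, all but mt-Co2 overlap another gene in the annotation, the abundant mt-Co1 included.

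The α and β chains of the receptor for GM-CSF were expressed (Csf2ra at 87.1 ± 1.11, Csf2rb at 25.1 ± 1.65 FPKM), while the gene of its ligand, Csf2, had no count in any library. Likewise Il10ra and Il10rb were at 15.4 ± 0.612 and 43.3 ± 1.68 FPKM with Il10 at 0.231 ± 0.212, and Tlr4 was at 19.5 ± 1.15 FPKM. Csf2rb and Csf2rb2 are near-identical copies, so that the level of each is uncertain.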
